A study of Mus musculus with 4 samples.

Results

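*Sele*, *Selp*, *Vcam1*, *Icam1*, *Icam2*, *Ackr1*, *Lcn2*, *Ch25h* and *Vwf* are genes by which the vessel wall takes up leukocytes or answers inflammatory signals. They were found by symbol among the 32285 genes of the deposited count matrices, and all 9 had at least 1 UMI (a counted RNA molecule) in the nuclei kept. The genes were chosen by their levels in endothelial nuclei and libraries of these data, which were known when the list was drawn up, so levels between cell classes and between libraries are given as a description, without a test. RNA was counted in single nuclei of whole brains. All groups were female 5XFAD mice, which carry mutant human transgenes and deposit amyloid. The mice were 7 to 10 weeks of age when they received engineered extracellular vesicles (EVs) by vein. These EVs were assembled from lipids of adipocyte EVs, carried transferrin on their surface and had a low (PE-low-EV) or a high (PE-high-EV) content of phosphatidylethanolamine (PE). Each group had 2 libraries and each library pooled 2 mice, so n = 2 libraries per group, and 2 pools cannot show how single mice varied. No library of untreated or wild-type mice was analysed here.

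Leukocytes leave the blood mainly through small venules. Selectins on the endothelium catch rolling cells, chemokines held on its surface activate their integrins, and VCAM1 and ICAM1 then bind those integrins and hold the cells in place. Endothelium at rest carries ICAM2 and stores von Willebrand factor, whereas E-selectin, VCAM1 and ICAM1 are induced by cytokines such as TNF and IL-1, largely through NF-κB. In the healthy brain this induction is low.

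Because induced members are known for κB sites close to their start, the promoters of the 9 genes were searched for the κB form GGANNTTCC on both strands. RefSeq promoter windows (GRCm38.p6, the build of mm10, from 250 bases before to 50 bases after the start) were found for 6 of the 9 genes. The form lay in *Sele* and *Icam1* and not in the windows of *Selp*, *Ackr1*, *Lcn2* and *Ch25h*, and 4.26% of 32851 mouse promoters held it. The windows of both genes are given 5′ to 3′ on the coding strand, with the κB form in capitals. They are chr1:164047984-164048283 (plus strand) for *Sele* and chr9:21015690-21015989 (plus strand) for *Icam1*.
Sele: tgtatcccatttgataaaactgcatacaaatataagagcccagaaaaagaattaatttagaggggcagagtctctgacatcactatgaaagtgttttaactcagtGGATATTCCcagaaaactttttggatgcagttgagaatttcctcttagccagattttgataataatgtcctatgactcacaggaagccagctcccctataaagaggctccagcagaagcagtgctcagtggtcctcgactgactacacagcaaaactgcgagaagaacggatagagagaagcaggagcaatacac
Icam1: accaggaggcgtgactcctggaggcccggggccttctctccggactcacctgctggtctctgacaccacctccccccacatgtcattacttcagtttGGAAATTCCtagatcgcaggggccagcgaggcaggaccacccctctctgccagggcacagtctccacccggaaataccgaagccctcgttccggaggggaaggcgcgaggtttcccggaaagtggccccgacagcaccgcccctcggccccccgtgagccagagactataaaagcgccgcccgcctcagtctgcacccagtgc
The form read GGATATTCC at bases −145 to −137 from the start in *Sele* and GGAAATTCC at −153 to −145 in *Icam1*. The STAT form TTCNNNGAA, in 8.30% of promoters, lay at −140 to −132 in *Sele*, where it overlaps the κB form, and at −42 to −34 in *Icam1*. The AP-1 form TGANTCA, in 7.81% of promoters, was found in *Sele* at −73 to −67 and in *Selp* at −139 to −133. These matches are letters in a window and say nothing of binding.

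After calling and filters (200 to 2500 genes, mitochondrial share up to 15%), 37530 nuclei were left. The 4 libraries held 10295, 7601, 10077 and 9557 of them, in the order PE-low-EV replicate 1, PE-low-EV replicate 2, PE-high-EV replicate 1 and PE-high-EV replicate 2, which all lists of 4 values keep. They held between 13989914 and 18911634 UMIs per library. Clusters named from markers gave 182, 112, 95 and 91 endothelial-like nuclei 480 in all, and 173 mural-like (pericytes and smooth muscle) and 114 fibroblast-like nuclei. As means of the libraries, all 12 endothelial, 11 mural and 10 fibroblast markers lay at over 3 times their level in other nuclei, but only 9 of the mural and 8 of the fibroblast markers had a UMI in every library. Endothelial-like nuclei were shallow, with medians of 791.5, 1007, 628 and 602 UMIs. Levels are therefore given as CPM, the UMIs of a gene per 1000000 UMIs of the class, with exact 95% Poisson intervals that cover counting error only.

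The endothelial-like nuclei of PE-low-EV replicate 1 stood apart from those of the other libraries. Of its 182 nuclei, 151 lay in a cluster led by *Slco1a4*, *Flt1* and *Cldn5*, which held 2, 5 and 3 nuclei of the other libraries. Those libraries lay mostly in 3 clusters of 104, 86 and 64 nuclei led by interferon-induced genes such as *Cxcl10*, *Rsad2* and *Ifit1*, to which PE-low-EV replicate 1 gave 0, 0 and 3 nuclei. A cluster of 65 nuclei was shared, with 28, 12, 12 and 13 nuclei. The gap between the 2 PE-low-EV libraries exceeded that between the group means for every member but *Sele* and *Ackr1*, so values are given per library. No 2 libraries shared a barcode that was endothelial-like in both.

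The selectins were scarce. *Sele* (ENSMUSG00000026582, chromosome 1, 164048234 to 164057677) encodes E-selectin, which is made anew on activated endothelium. It had 0 UMIs in PE-low-EV replicate 1 and 3, 3 and 5 UMIs in PE-low-EV replicate 2 and PE-high-EV replicates 1 and 2, or 25.1, 42.1 and 83.1 CPM in endothelial-like nuclei. These 11 UMIs came from 4 nuclei. *Selp* (ENSMUSG00000026580, chromosome 1, 164115264 to 164150026), P-selectin of endothelial and platelet granules, had 0, 4, 1 and 3 UMIs from 3 nuclei. All UMIs of both selectins fell in 1 of the 5 endothelial-like clusters, a cluster of 104 nuclei with *Cxcl10*, *Rsad2*, *Iigp1* and *Gbp5* among its leading genes, of which 0, 61, 21 and 22 were from each library. With 0 of 182 nuclei in PE-low-EV replicate 1, a count of 0 set at a limit of 3 gives a share of 1.65% of nuclei for either selectin. This is not an exact binomial limit.

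*Vcam1* (ENSMUSG00000027962, chromosome 3, 116109949 to 116129688, minus strand) encodes the ligand of integrin α4β1 on lymphocytes and monocytes. Endothelial-like nuclei of PE-low-EV replicate 1 held 3 UMIs, or 19.7 CPM (4.07 to 57.7). The level was 888 CPM (727 to 1074) in PE-low-EV replicate 2, and 1264 (1016 to 1554) and 1063 CPM (819 to 1358) in PE-high-EV replicates 1 and 2. PE-low-EV replicate 1 alone was low, and the intervals of PE-low-EV replicate 2 and both PE-high-EV replicates overlapped. Against PE-low-EV replicate 1 the level was 45.0 times higher in PE-low-EV replicate 2 (14.98 to 222), 64.0 times in PE-high-EV replicate 1 (21.2 to 316) and 53.9 times in PE-high-EV replicate 2 (17.6 to 268). The shares of nuclei with a *Vcam1* UMI were 1.65%, 25.9%, 22.1% and 22.0%. In neuron-like nuclei, which are deeper (medians of 2126, 2925, 1542 and 1594 UMIs) and should lack the gene, the shares were 0.679%, 0.738%, 0.650% and 0.581%.

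*Icam1* (ENSMUSG00000037405, chromosome 9, 21015985 to 21028817) encodes the ligand of the integrins LFA-1 and Mac-1. It had 5, 92, 74 and 44 UMIs in endothelial-like nuclei, or 32.9 (10.7 to 76.8), 771 (621 to 945), 1039 (816 to 1305) and 731 CPM (531 to 981). Again PE-low-EV replicate 1 was the low library and the other intervals overlapped. *Icam1* was found in more nuclei than *Vcam1*, with shares of 2.75%, 42.9%, 43.2% and 35.2%. In neuron-like nuclei these shares lay between 0.0646% and 0.146%. To set the libraries at equal depth, each nucleus was thinned to 500 UMIs. All nuclei of the PE-low-EV libraries and 76 and 70 of those of PE-high-EV replicates 1 and 2 reached that depth. The expected shares were then 1.09%, 26.0%, 32.5% and 28.2% for *Icam1* and 0.735%, 17.7%, 20.03% and 20.7% for *Vcam1*.

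*Icam2* (ENSMUSG00000001029, chromosome 11, 106377656 to 106388075, minus strand), an LFA-1 ligand of endothelium at rest, did not share this pattern. Its 19, 7, 5 and 7 UMIs gave 125, 58.6, 70.2 and 116 CPM, so that PE-low-EV replicate 1 was the highest library. The ratio of PE-low-EV replicate 2 to PE-low-EV replicate 1 was 0.469, with an interval of 0.167 to 1.17 that includes 1. These libraries could thus not be told apart at this depth.

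**Figure D1:**
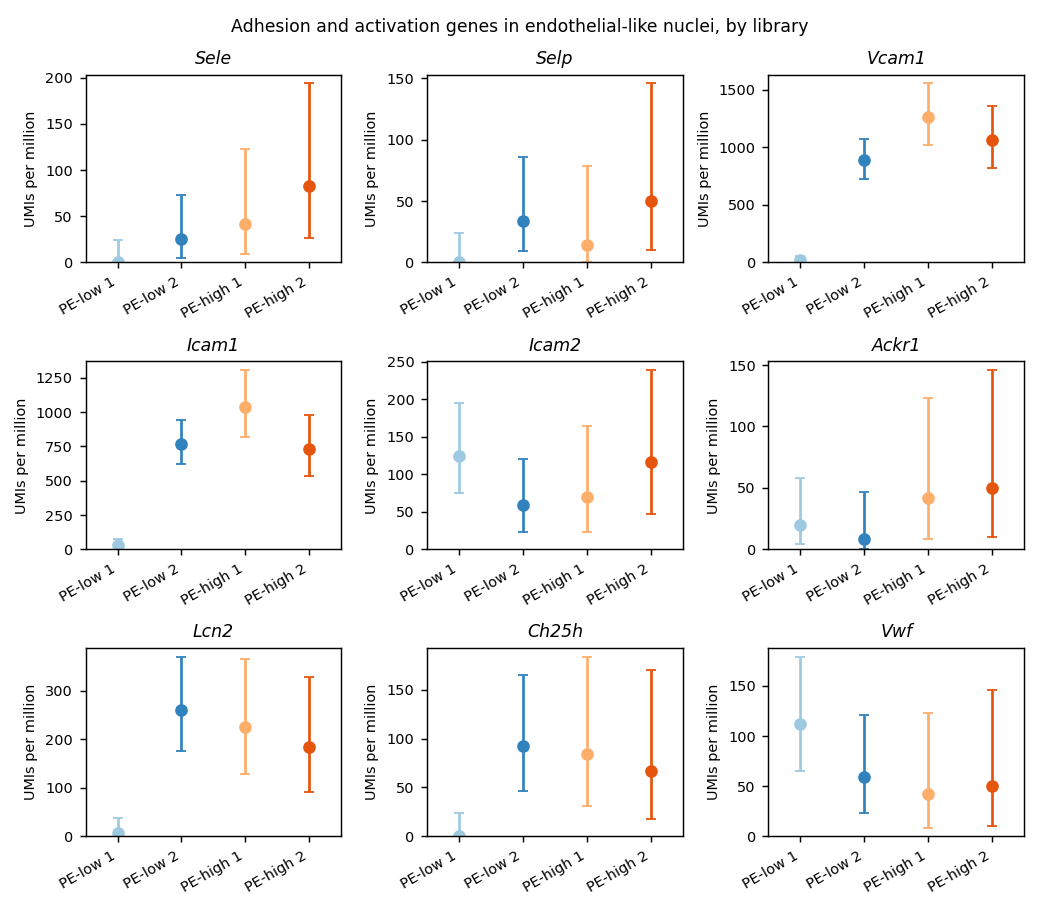
Level of the 9 genes in endothelial-like nuclei, in CPM (vertical axes, from 0), for each of the 4 libraries (horizontal axis); points are libraries and bars are exact 95% Poisson intervals. *Vcam1* lies at 19.7 and *Icam1* at 32.9 in PE-low-EV replicate 1 and between 731 and 1264 in the other libraries, whereas *Icam2* and *Vwf* are highest in PE-low-EV replicate 1.

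*Lcn2* (ENSMUSG00000026822, chromosome 2, 32384633 to 32388252, minus strand) encodes lipocalin 2, an acute phase protein that binds bacterial siderophores. It had 1, 31, 16 and 11 UMIs, or 6.58, 260, 225 and 183 CPM. *Ch25h* (ENSMUSG00000050370, chromosome 19, 34473778 to 34475164, minus strand) encodes cholesterol 25-hydroxylase, an interferon-induced enzyme that makes 25-hydroxycholesterol. It had 0, 11, 6 and 4 UMIs, or 0, 92.2, 84.3 and 66.5 CPM. Both were lowest in PE-low-EV replicate 1. PE-low-EV replicate 2 had 39.5 times more *Lcn2* (6.58 to 1609), and at least 4.67 times more *Ch25h* when the 0 count is set at a limit of 3 UMIs.

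The 6 neutrophil markers had 0 UMIs in endothelial-like and mural-like nuclei of every library. The platelet markers had 1 UMI in the endothelial-like nuclei of each PE-low-EV library and 0 in those of the PE-high-EV libraries. *Lcn2* had 0 UMIs in the 3245 astrocyte-like nuclei of the 4 libraries. The part of neutrophils, platelets and astrocytes in these levels was not tested. *Vwf* (ENSMUSG00000001930, chromosome 6, 125546774 to 125686679) encodes the clotting protein stored in Weibel-Palade bodies that ties platelets to the vessel wall. Its 17, 7, 3 and 3 UMIs gave 112, 58.6, 42.1 and 49.8 CPM. PE-low-EV replicate 1 was highest, yet the ratio of PE-low-EV replicate 2 to it was 0.524 with an interval of 0.184 to 1.33.

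**Figure D2:**
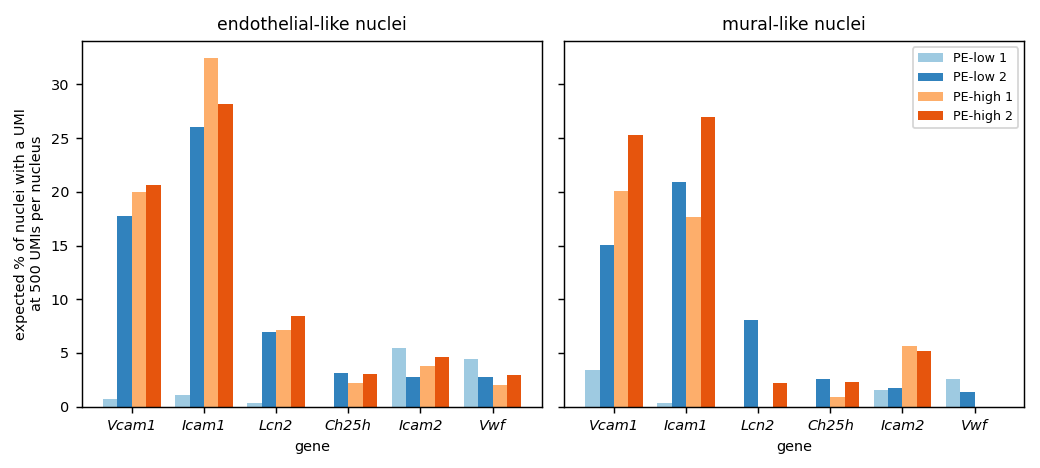
Expected share of nuclei with at least 1 UMI (vertical axes, percent, from 0) after thinning each nucleus to 500 UMIs, for 6 genes in endothelial-like and mural-like nuclei of each library (bars). At equal depth *Icam1* is found in 1.09% of endothelial-like nuclei of PE-low-EV replicate 1 and in 26.0% to 32.5% of those of the other libraries, and *Lcn2* in 0.318% and in 6.92% to 8.40%.

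*Ackr1* (ENSMUSG00000037872, chromosome 1, 173331886 to 173333750, minus strand) encodes an atypical receptor that carries chemokines across venules. It had the most UMIs of the 9 genes in all nuclei, 1202, yet only 0.832% of them lay in endothelial-like nuclei and 72.0% in neuron-like nuclei. Its gene body overlaps *Cadm3*, a neuronal adhesion gene on the same strand from 173333258 to 173367695 with 4238 UMIs. The ratio of *Ackr1* to *Cadm3* UMIs in all nuclei was 0.292, 0.279, 0.289 and 0.271 in the 4 libraries, and in near-empty droplets it was 0.326, 0.323, 0.357 and 0.310. The level of *Ackr1* is therefore uncertain wherever *Cadm3* is counted. In endothelial-like nuclei it had 3, 1, 3 and 3 UMIs, beside 9, 3, 9 and 2 UMIs of *Cadm3*, so PE-high-EV replicate 2 held more *Ackr1* than *Cadm3* there. Antisense genes overlap *Selp*, *Vcam1*, *Icam1* and *Ch25h*, and each had at most 20 UMIs in all nuclei.

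In mural-like nuclei (40, 60, 31 and 42), *Vcam1* had 8, 79, 24 and 60 UMIs, or 170, 872, 818 and 1636 CPM, and *Icam1* had 1, 54, 14 and 30 UMIs, or 21.3, 596, 477 and 818 CPM. PE-low-EV replicate 1 was lowest for both. The *Vcam1* ratio to it ranged from 4.81 to 9.61 over the other libraries, and that of PE-low-EV replicate 2 had an interval of 2.48 to 12.3. *Lcn2* followed the libraries less closely, with 0, 28, 0 and 4 UMIs. *Sele* had 7 UMIs in 2 mural-like nuclei of PE-high-EV replicate 2. The 12 endothelial markers summed to 8492, 7982, 7399 and 8016 CPM in mural-like nuclei, beside 9045, 7165, 7092 and 7035 CPM for the 11 mural markers. Droplets called mural-like thus held as much endothelial as mural marker RNA. A mural-like cluster of 80 nuclei (0, 40, 18 and 22) held 9587 CPM of endothelial and 6467 CPM of mural markers. It gave 99 of the 171 *Vcam1* and 87 of the 99 *Icam1* UMIs of the class. An unnamed cluster of 58 nuclei held a like mixture (12934.5 and 6649.8 CPM), and 46 of these nuclei were from PE-low-EV replicate 1. The part of endothelial RNA and of this naming in these levels was not tested.

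A smooth muscle cluster gave *Vcam1* another pattern. This cluster of 19 mural-like nuclei, led by *Acta2*, *Mgp* and *Tagln*, held 5, 5, 2 and 7 nuclei of the libraries and 7, 27, 14 and 21 UMIs of *Vcam1*, or 2459 CPM overall. It had *Vcam1* UMIs in PE-low-EV replicate 1 also, and 11 UMIs of *Icam1* (1, 5, 0 and 5). By contrast, the mural-like cluster of 74 nuclei with 35 of PE-low-EV replicate 1 had 3 UMIs of *Vcam1* and 1 of *Icam1* in all. The third mural-like cluster, of 80 nuclei (0, 40, 18 and 22), was led by interferon-induced genes and had 898 CPM of *Vcam1* and 789 CPM of *Icam1*.

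Fibroblast-like nuclei (40, 21, 23 and 30) had 1, 13, 2 and 3 UMIs of *Vcam1*, or 23.7, 412, 107 and 126 CPM, and 0, 20, 2 and 0 UMIs of *Icam1*. Here PE-low-EV replicate 2 was the high library. Microglia-like nuclei had *Icam1* at 29.7, 87.6, 45.5 and 27.4 CPM (16, 32, 19 and 9 UMIs), so PE-low-EV replicate 1 lay within the range of the PE-high-EV replicates. Astrocyte-like nuclei held *Vcam1* at 25.6, 30.3, 31.2 and 24.3 CPM, levels that did not set any library apart, and 1 UMI of *Icam1* in all.

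Over classes, the mean of the 4 libraries for *Vcam1* was 874 CPM in mural-like, 809 in endothelial-like, 167 in fibroblast-like, 27.8 in astrocyte-like and 19.4 in microglia-like nuclei. The ranges of the libraries overlapped between mural-like and endothelial-like nuclei (170 to 1636 and 19.7 to 1264) and between endothelial-like and fibroblast-like nuclei. For *Icam1* the order was endothelial-like (643), mural-like (478), fibroblast-like (185) and microglia-like (47.6), and neighbouring ranges overlapped in each case. The endothelial-like nuclei, 480 of 37530, held 29.0% of the 906 UMIs of *Vcam1*, 38.7% of the 555 of *Icam1*, 43.7% of the 87 of *Icam2*, 47.6% of the 124 of *Lcn2*, 38.9% of the 54 of *Ch25h* and 46.9% of the 64 of *Vwf*. Clusters left unnamed (2457 nuclei) held 139 UMIs of *Vcam1* and 109 of *Icam1*. Near-empty droplets had 0.99, 5.41, 3.85 and 5.19 CPM of *Icam1*, so *Icam1* RNA outside nuclei was also lowest in PE-low-EV replicate 1.

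**Figure D3:**
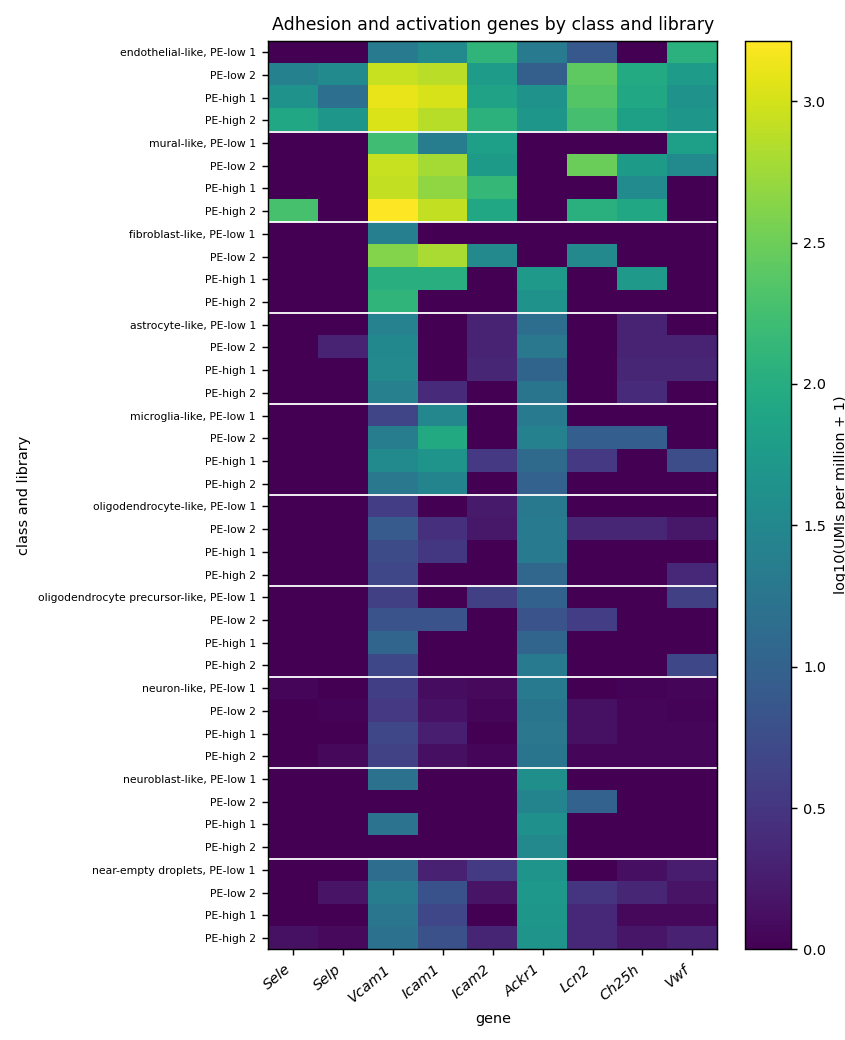
Level of the 9 genes (columns) in 9 classes of nuclei and in near-empty droplets, each as 4 rows for the libraries; colour is log10 of CPM plus 1. *Vcam1* and *Icam1* are highest (yellow) in endothelial-like and mural-like nuclei and darker there in PE-low-EV replicate 1, whereas *Ackr1* is spread over neuron-like nuclei and near-empty droplets.

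The effect of the PE content was then tested by summing UMIs per library within a class and comparing the 2 PE-high-EV with the 2 PE-low-EV libraries by edgeR's quasi-likelihood test. Its p-values measure the spread between pooled libraries. In endothelial-like nuclei 4 of the 9 genes passed the filter on low counts. *Vcam1* was at 454 ± 614 CPM (SD, n = 2) in PE-low-EV and 1164 ± 142 CPM (SD, n = 2) in PE-high-EV, a log2 fold change of 1.35 (SE 1.34, adjusted p = 0.9996). For *Icam1* the means were 402 ± 522 and 885 ± 218 CPM and the log2 fold change was 1.13 (SE 1.21). *Lcn2* gave 0.65 (SE 1.19) from 133 ± 179 and 204 ± 29.6 CPM, and *Icam2* gave −0.05 (SE 0.66) from 91.8 ± 46.9 and 93.3 ± 32.6 CPM.

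None of the 4 passed an adjusted p of 0.1, and 0% of the 2144 genes tested were called. At an unadjusted p under 0.05 edgeR had 19 genes, and DESeq2 called 0 genes, with 2 at an unadjusted p under 0.05. The 5 genes too sparse for the test had means (PE-low-EV, then PE-high-EV; SD, n = 2) of 12.6 ± 17.8 and 62.6 ± 29.0 CPM for *Sele*, 16.8 ± 23.7 and 31.9 ± 25.3 for *Selp* and 14.1 ± 8.03 and 46.0 ± 5.46 for *Ackr1*. They were 46.1 ± 65.2 and 75.4 ± 12.6 CPM for *Ch25h* and 85.2 ± 37.6 and 46.0 ± 5.46 for *Vwf*.

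The size of the difference rested on which PE-low-EV library was kept. Without PE-low-EV replicate 1, the log2 fold change was 0.40 (SE 0.36) for *Vcam1*, 0.22 (SE 0.36) for *Icam1* and −0.33 (SE 0.38) for *Lcn2*. Without PE-low-EV replicate 2, it was 5.76 (SE 0.57) for *Vcam1*, 4.68 (SE 0.53) for *Icam1* and 4.68 (SE 1.40) for *Lcn2*. In that fit 305 of 1953 genes were called, 217 higher and 88 lower in PE-high-EV, against 2 of 1847 without PE-low-EV replicate 1. A fit with 1 PE-low-EV library assumes that this library varies like the PE-high-EV libraries. The genes were also chosen with the low level of PE-low-EV replicate 1 known, so such fits are given for them without p-values. What set PE-low-EV replicate 1 apart was not tested, and in 1 pool of mice its source cannot be told apart from the library itself.

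**Figure D4:**
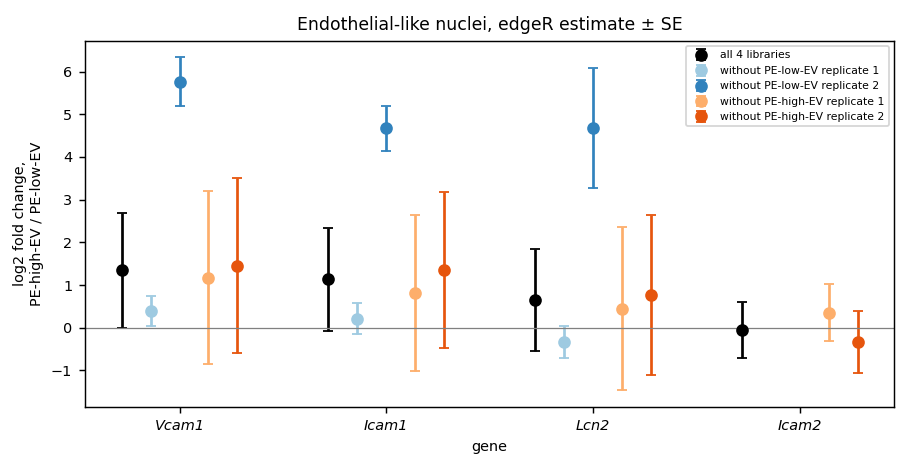
Log2 fold change of PE-high-EV over PE-low-EV (vertical axis) with its standard error (bars) for 4 genes (horizontal axis) in endothelial-like nuclei, from edgeR with all 4 libraries and with each library left out (colours); *Icam2* was filtered out of both fits without a PE-low-EV library. Leaving out PE-low-EV replicate 2 moves *Vcam1* from 1.35 to 5.76 and leaving out PE-low-EV replicate 1 moves it to 0.40.

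The same comparison was made in the other classes. In mural-like nuclei *Vcam1* had a log2 fold change of 1.17 (SE 0.74) and *Icam1* of 0.95 (SE 1.01), both at an adjusted p of 0.9993. None of 754 genes was called by edgeR (0%, with 4 at an unadjusted p under 0.05) or by DESeq2 (3 at an unadjusted p under 0.05). With PE-low-EV replicate 2 left out, *Vcam1* was at 2.80 (SE 0.49) and *Icam1* at 4.70 (SE 0.87). Without PE-low-EV replicate 1 *Vcam1* was at 0.47 (SE 0.31) and *Icam1* at 0.09 (SE 0.38). In astrocyte-like nuclei *Vcam1* had a log2 fold change of 0.02 (SE 0.32). None of the 9 genes was tested in fibroblast-like nuclei.

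In the sum of all nuclei 8 of the 9 genes were tested and none passed (0% of 17752 genes called by edgeR, 866 at an unadjusted p under 0.05, and 20 called by DESeq2). *Sele* had 2, 3, 12 and 13 UMIs in all nuclei, more in each PE-high-EV library than in either PE-low-EV library. Its log2 fold change was 2.69 (SE 0.52, adjusted p = 0.765), which did not pass. Of its 30 UMIs, 11 lay in 4 endothelial-like nuclei, 7 in 2 mural-like nuclei and 2 in 1 neuron-like nucleus. Unnamed clusters held 10 UMIs in 4 nuclei, 9 of these UMIs in PE-high-EV replicate 1, so the counts rested on few nuclei. *Vwf* had 34, 14, 9 and 7 UMIs and a log2 fold change of −1.13 (SE 0.52), which did not pass either and was −0.41 without PE-low-EV replicate 1 and −1.59 without PE-low-EV replicate 2. In such sums, fewer cells of a type and less RNA per cell cannot be told apart.

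The low values of PE-low-EV replicate 1 were counted over genes. The members were chosen with these values known, so their counts are a description, and nothing is read from them against all genes. In endothelial-like nuclei it lay at least 2-fold under each other library in 3 of the 4 genes tested (*Vcam1*, *Icam1* and *Lcn2*), beside 12.1% of all genes tested (260 of 2144). It lay as far over each other library in none of the 4, beside 1.21% of all genes. The filter on low counts keeps a gene only with enough UMIs in more than 1 library. Genes high in 1 library alone thus tended to drop out, and the low and high shares are not comparable. The other libraries lay so far under all others in 31, 53 and 80 genes. In mural-like nuclei it was low in this way for both genes tested, beside 14.3% of all genes, and in astrocyte-like nuclei for neither of 2, beside 0.414%. In all nuclei it was low for 4 of 8 genes (*Vcam1*, *Icam1*, *Lcn2* and *Ch25h*), beside 0.794% of all genes, and at least 2-fold over each other library for *Vwf*, beside 0.146%.

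Lists of other genes of the pathway, also drawn up with these data known, were set beside the 9 genes in endothelial-like nuclei. No list gene was called higher or lower, and the median log2 fold change of all tested genes was −0.00. Of all 2144 tested genes, 12.1% lay at least 2-fold under each other library in PE-low-EV replicate 1. The filter on low counts tended to keep such genes and to drop genes high in that library alone. Of 18 NF-κB pathway and feedback genes 7 were tested, with a median of 0.41, and 6 lay at least 2-fold under each other library in PE-low-EV replicate 1 (*Nfkb1*, *Nfkbia*, *Tnfaip3*, *Tnip1*, *Birc3* and *Bcl3*, but not *Rela*). *Nfkbia*, which encodes the inhibitor that NF-κB induces against itself, was at 329, 1022, 786 and 814 CPM. *Birc3*, an NF-κB target that restrains cell death, was at 46.1, 360, 253 and 216 CPM.

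Cytokine receptors and their signal genes gave a like count. Of 17 listed, 7 were tested, with a median of 0.62, and 4 were low in PE-low-EV replicate 1 (*Il6ra*, *Il6st*, *Irf1* and *Osmr*). *Irf1*, an interferon-induced transcription factor gene, was at 26.3, 578, 506 and 781 CPM. *Osmr*, the gene of the oncostatin M receptor, was at 78.9, 411, 379 and 449 CPM. Of 14 chemokines and cytokines 5 were tested, with a median of 0.53, and 3 were low in that library (*Cxcl9*, *Cxcl10* and *Csf1*). *Cxcl10*, which draws CXCR3-bearing T cells, was at 0, 9894, 7345 and 6530 CPM, whereas *Cxcl12*, a chemokine of endothelium at rest, was at 908, 720, 899 and 665 CPM.

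Other lists held fewer such genes. Of 15 other endothelial adhesion genes 8 were tested, with a median of −0.45, and none was low in PE-low-EV replicate 1. Beside the 12.1% of all tested genes, none of 8 is near that share. *Eng* was at 461, 276, 309 and 183 CPM and *Podxl* at 322, 218, 323 and 349 CPM. *Emcn*, named after its values were seen, encodes endomucin, a mucin that hinders leukocyte binding, and was at least 2-fold higher in PE-low-EV replicate 1 than in each other library, at 487, 117, 197 and 150 CPM. Of 13 coagulation and Weibel-Palade genes 2 were tested, with a median of 0.33, and 1 was low in PE-low-EV replicate 1. *Edn1* of this list, also named after its values were seen, was not tested and went the other way, with 25, 1, 0 and 3 UMIs. The prostaglandin enzyme gene *Ptgs2* was at 0, 184, 239 and 282 CPM, and *Plat*, the tissue plasminogen activator gene, at 112, 193, 98.3 and 66.5 CPM. Of 11 leukocyte counter-receptor genes, the integrins that bind these ligands, only *Itgb1* was tested, at 158, 101, 267 and 183 CPM and a log2 fold change of 0.76. *Itga4*, whose product pairs with it to bind VCAM1, had 1, 1, 3 and 0 UMIs.

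**Figure D5:**
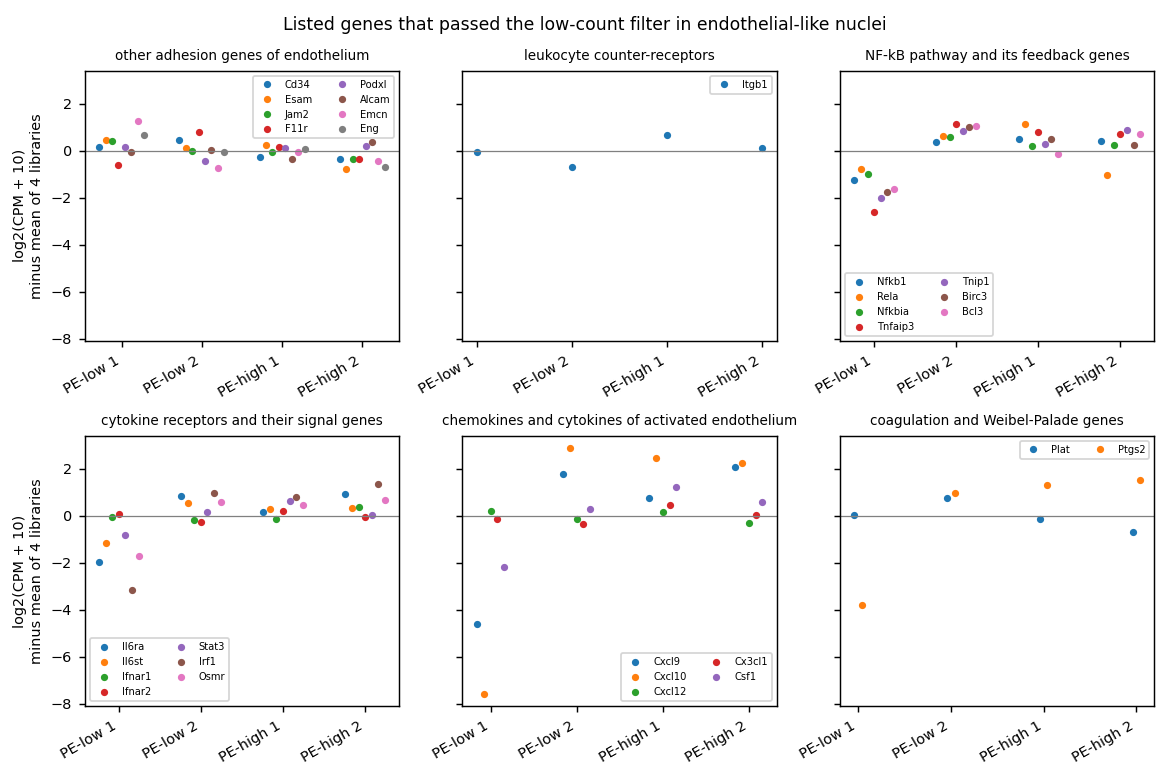
Level of each tested gene of 6 pathway lists in endothelial-like nuclei of each library, as log2 of normalised CPM plus 10, minus the mean of the 4 libraries (vertical axes); each point is a gene in a library. In the NF-κB, cytokine receptor and chemokine lists, 6 of 7, 4 of 7 and 3 of 5 genes lie at least 2-fold lower in PE-low-EV replicate 1 than in each other library, and none of 8 other adhesion genes does. Of all tested genes 12.1% do.

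Within the endothelium the genes were set against vessel zones, by placing each endothelial-like nucleus in the zone whose markers held the most UMIs. This placed 246 nuclei as capillary (120, 45, 43 and 38), 75 as venous (7, 31, 20 and 17) and 21 as arterial. The other 138 nuclei were not placed. How far the levels below rested on the venous marker *Tmem252* is given after them. *Vcam1* was at 2364 CPM (2031 to 2736) in venous and 152 CPM (104 to 215) in capillary nuclei. Without PE-low-EV replicate 1, which gave few venous nuclei, the levels were 2567 and 283 CPM. Venous nuclei were higher within PE-low-EV replicate 2 (2218 against 146 CPM) and within PE-high-EV replicates 1 (2956 against 508 CPM) and 2 (3062 against 267 CPM).

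*Lcn2* was at 486 CPM in venous and 66.5 CPM in capillary nuclei, or 528 and 123 CPM without PE-low-EV replicate 1. *Ch25h* was at 184 and 9.50 CPM, or 199.6 and 18.9 CPM with the same library left out. All placed UMIs of *Sele* (7) and *Selp* (8) in venous or capillary nuclei were venous. *Icam1* was spread more evenly. Without PE-low-EV replicate 1 it was at 998 CPM in venous and 803 CPM in capillary nuclei, with intervals of 778 to 1261 and 642 to 993 that overlap. *Icam2* was at 39.4 CPM in venous and 128 CPM in capillary nuclei and *Vwf* at 78.8 and 71.3 CPM, from only 3 and 6 venous UMIs. The venous marker *Tmem252* itself differed between libraries (39, 1123, 590 and 449 CPM). With zones placed without it, a choice made after seeing the data, 25 nuclei were venous (7, 6, 6 and 6), and *Vcam1* was at 3302 against 455 CPM, *Lcn2* at 986 against 114 CPM and *Icam1* at 986 against 478 CPM. Of the 23 venous UMIs of *Lcn2*, 19 lay in 3 nuclei of PE-low-EV replicate 2. With these nuclei's library left out, *Lcn2* was at 254 (69.1 to 650) and 100.4 CPM (59.5 to 159), whose intervals overlap. With PE-low-EV replicate 1 left out instead, *Icam1* was at 1271 (797 to 1925) and 788 CPM (652 to 943), again with overlapping intervals. *Vcam1* was then at 4450 (3512 to 5562) and 761 CPM (628 to 914), so it stayed higher in venous nuclei. Library by library, its capillary level was 502, 927 and 1155 CPM, beside 146, 508 and 267 CPM with *Tmem252* kept as a marker. Its venous levels were 5166, 4434 and 3158 CPM, each from 6 nuclei. The gap in *Vcam1* between the zones thus rested in part on *Tmem252*. With all 4 libraries *Sele* had 7 venous UMIs and 1 capillary UMI. *Ch25h* in capillary nuclei was then at 31.4 CPM (8 UMIs), beside 9.50 CPM (2 UMIs) with *Tmem252* among the markers.

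Some single nuclei held several of these transcripts, though 276 of the 480 held none of the 8 genes besides *Ackr1* and 136 held 1. Of the 33 endothelial-like nuclei with an *Lcn2* UMI, 24 also had *Icam1* and 18 had *Vcam1*. Of the 14 with *Ch25h*, 11 had *Vcam1*, 11 had *Icam1* and 9 had *Lcn2*. All 4 nuclei with *Sele* had *Icam1*, and all 3 with *Selp* had *Vcam1*, *Icam1*, *Lcn2* and *Ch25h*. Of 36 nuclei with *Icam2*, 8 had *Icam1*, and of 24 with *Vwf*, 4 had it. These counts pool the libraries. PE-low-EV replicate 1, where 5 of 182 nuclei had *Icam1*, gave 18 of the *Icam2* and 13 of the *Vwf* nuclei. In the other libraries *Icam1* was found with *Icam2* in 2, 4 and 1 nuclei, beside 3, 2.16 and 2.11 from the product of the shares. With *Vwf* it was found in 2, 1 and 0, beside 2.14, 1.29 and 1.05, and with *Lcn2* in 11, 7 and 6, beside 6, 3.88 and 3.16. Leaving out *Ackr1*, at least 2 of the 8 other genes were found in 2.75%, 25.9%, 17.9% and 18.7% of endothelial-like nuclei of the libraries. These counts rise with the depth of a nucleus, and a droplet with more than 1 nucleus adds to them.

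Likeness of patterns was measured over the sums of 11 classes in each of the 4 libraries (44 points, 15388 genes) as Pearson's r of log2(CPM + 10). Such points share libraries and depth, so the values are a description. The 3 genes most like *Vcam1* were *Olfr56*, *Cebpd* and *Arid5a* (r = 0.94 each). Those most like *Icam1* were *Irf7* (0.96), *Gbp7* (0.95) and *Ifih1* (0.95), which are known as interferon-induced genes. For *Lcn2* they were *Ifi47* (0.96), *Plaur* (0.90) and *Tmem252* (0.90), and for *Ackr1* they were *Mthfd1* (0.82), *2310061I04Rik* (0.71) and *Apoo* (0.71).

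The class was also defined in other ways. A gate of at least 3 UMIs over at least 2 endothelial markers took 250, 143, 112 and 114 nuclei, in which *Vcam1* was at 75.9, 744, 1242 and 1051 CPM and *Icam1* at 28.9, 733, 932 and 748 CPM. Without endothelial-like nuclei that held at least 3 UMIs of the markers of another class, 67, 25, 51 and 54 nuclei remained, with *Vcam1* at 0, 599, 1068 and 823 CPM and *Icam1* at 19.8, 985, 1193 and 710 CPM. PE-low-EV replicate 1 was lowest for both genes under either definition. In the last set *Lcn2* had 1, 3, 2 and 3 UMIs, or 19.8, 128, 62.8 and 85.2 CPM, so its level there rested on few UMIs. *Ch25h*, *Sele* and *Selp* had 0 UMIs there in every library but PE-high-EV replicate 2, where they had 3, 5 and 3. The low level of *Ch25h* in PE-low-EV replicate 1 relative to PE-low-EV replicate 2 was thus not seen in that set.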

How the data were processed

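Nuclei from frozen sections of 5XFAD mouse brains were processed with 10x 3′ v3.1 chemistry. Reads were counted by the authors (Cell Ranger 7.1.0, mm10), and the deposited matrices hold raw UMI counts for every gene and barcode, empty droplets included. Lists of genes and barcodes deposited beside them (unit other) gave only names and order. Whether intronic reads were counted is not stated. The 9 genes and the pathway lists were chosen with earlier results of these data known.

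Barcodes above a knee (573, 839, 405 and 422 UMIs in the 4 libraries, PE-low-EV first) were called as nuclei. Others with at least 500 UMIs were tested against near-empty barcodes ranked 45000 to 90000 (FDR 0.01), which gave 12007, 8735, 13967 and 10869 nuclei. The filters were 200 to 2500 genes and a mitochondrial share up to 15%, since an earlier analysis of these data had found no endothelial-like cluster under the study's limit of 3%. Under 3%, clustered anew here, 0, 5, 3 and 11 nuclei were endothelial-like. Clustering (Python 3.11.15, scanpy 1.11.5, leidenalg 0.10.2) used 2000 variable genes, 30 components, 20 neighbours and a resolution of 0.8, and the 2 vascular clusters were divided into 18. Undivided clusters were named where at least 3 markers, and 50% of those of the class, reached 20 CPM and 3 times the median cluster. For neurons 1.5 times was enough. The 18 vascular clusters needed 3 such markers and a marker sum of at least 50% of the largest sum among them. Mural was tried first, so a cluster with more endothelial than mural marker RNA could be named mural-like. A vascular cluster was left unnamed where another class had more leading markers. All these thresholds were chosen with the clusters already in view. Doublets were not removed.

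UMIs were summed per class and library and tested with edgeR 4.0.16 (R 4.3.3; filterByExpr, TMM, quasi-likelihood test, Benjamini-Hochberg over all tested genes, threshold 0.1), the scripts for which were checked on simulated data. DESeq2 1.42.0, other filters and classes, a replicate block and leaving out each library were tried as alternatives. Classes with under 10 nuclei in a library were not fitted. Besides the 9 genes, the text names markers, called list genes or otherwise the 2 of each list with the highest CPM in endothelial-like nuclei, list genes low in 1 library, and the 3 genes most like each member with at least 100 UMIs. In the list of cytokine receptors and signal genes, 1 gene is not reported here and was left out of the counts. Intervals are exact Poisson intervals at 95%, and a count of 0 was set at a limit of 3 UMIs.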

Additional observations from a re-analysis of the deposited data

How the results depend on the processing

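In endothelial-like nuclei the number of genes called stayed at 0 under DESeq2, no filter on low counts, the replicate block, no mitochondrial limit, no upper limit on genes, the marker gate and the removal of nuclei with markers of another class, and ranged from 0 to 305 with 1 library left out (2 without PE-low-EV replicate 1, 305 without PE-low-EV replicate 2). The ranges with 1 library left out were 0 to 93 genes in mural-like, 0 to 7 in fibroblast-like and 0 to 318 in astrocyte-like nuclei and 0 to 26 in all nuclei. Without PE-low-EV replicate 1 these counts were 1, 7, 318 and 0, without PE-low-EV replicate 2 they were 93, 3, 63 and 26, and without either PE-high-EV library they were 0, but for 1 gene in astrocyte-like nuclei without PE-high-EV replicate 2. Without a filter on low counts 1, 2 and 14 genes were called in mural-like, fibroblast-like and astrocyte-like nuclei, and DESeq2 called 20 in all nuclei. With the replicate number as a block, 1, 2 and 19 genes were called in fibroblast-like, astrocyte-like and all nuclei. Across genes, the difference between replicates 1 and 2 of PE-low-EV correlated with that of PE-high-EV at 0.056 in endothelial-like and 0.239 in all nuclei. With only 2 pairs, the numbers were not taken as pairing.

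With 1 library left out, the log2 fold change in endothelial-like nuclei ranged from 0.40 to 5.76 for *Vcam1*, 0.22 to 4.68 for *Icam1*, −0.33 to 4.68 for *Lcn2* and −0.33 to 0.35 for *Icam2*. In mural-like nuclei it ranged from 0.09 to 4.70 for *Icam1*. In astrocyte-like nuclei it ranged from −0.18 to 0.19 for *Vcam1*, which was at 0.79 (SE 0.36) under the marker gate, and −0.63 to 0.10 for *Ackr1*. In all nuclei it ranged from 0.11 to 1.71 for *Vcam1*, −1.59 to −0.41 for *Vwf*, −1.17 to −0.23 for *Icam2*, −0.47 to 2.72 for *Icam1*, −1.15 to 4.93 for *Lcn2*, −0.66 to 2.48 for *Ch25h* and −0.090 to 0.098 for *Ackr1*. *Icam2* in endothelial-like nuclei also turned to 0.0029 with the block, 0.00012 with no upper limit on genes and 0.26 under the marker gate. *Vcam1* turned to −0.20 in mural-like nuclei under the gate and to −0.060 in astrocyte-like nuclei with no mitochondrial limit. With that limit at 3%, *Vcam1*, *Icam1* and *Ackr1* in all nuclei turned to −0.15, −0.61 and −0.29. *Ackr1* there was −0.00039 under DESeq2, −0.0027 without a filter and −0.019 with no upper limit on genes, and *Lcn2* was 0.28 with the block. The cause of these changes was not tested, and no value that turned its sign passed the threshold.

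The mean CPM of PE-high-EV endothelial-like nuclei moved, with no upper limit on genes, to 109.7 for *Sele* and 65.8 for *Ackr1*. It moved under the gate to 114 for *Sele*, 173 for *Lcn2* and 29.7 for *Vwf*, and with no mitochondrial limit to 31.0 for *Ackr1*, 170 for *Lcn2* and 36.2 for *Vwf*. Without nuclei with markers of another class it moved to 945 for *Vcam1*, 132 for *Icam2*, 29.9 for *Ackr1* (31.3 in PE-low-EV), 74.0 for *Lcn2*, 42.6 for *Ch25h* and 59.8 for *Vwf*. Of the other alternatives, 124 log2 fold changes kept their direction, 57 mean levels moved by less than the SD of the libraries and 35 counts of genes stayed at 0. In PE-low-EV that SD exceeded the mean for genes such as *Vcam1* and *Icam1*, so a move could hardly pass it. Of 18 mean shares of nuclei with a UMI, 10 moved by more than the SD of their libraries and 8 by less when nuclei were thinned to 500 UMIs. The 3% limit gave no value for endothelial-like, mural-like and fibroblast-like nuclei, the gate none for fibroblast-like nuclei, and the removal of nuclei with markers of another class none for mural-like and fibroblast-like nuclei, since under 10 nuclei were left in a library. *Sele*, *Selp*, *Ackr1*, *Ch25h* and *Vwf* rest on 30 UMIs or fewer in endothelial-like nuclei, which limits what they can show.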
